A study of Mus musculus with 4 samples.

Results

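The 4 Egr genes of the mouse, Egr1, Egr2, Egr3 and Egr4, were followed in RNA from brain septal tissue. They were picked by symbol, each was on 1 row, and they make up 4 of the 15409 gene rows listed for the series. Mice labelled TCRb-/-, a name for loss of the T cell receptor beta chain gene, were compared with mice labelled WT. All mice of both genotypes had gone through restraint in a plastic cone, for 30 min on each of 3 days, and tissue was taken 1.5 h after the final session. No group without restraint was analysed here, so a level cannot be set against a resting one. Each genotype had 2 libraries, TCRb-/- replicates 1 and 2 and WT replicates 1 and 2, and each library was a pool of tissue from 4 to 5 mice. The labels place both replicates 1 in experiment 1 and both replicates 2 in experiment 2, and do not say what differed between the experiments. No source used here gives strain, age or sex. Replicates are pools, and no 2 libraries shared both genotype and experiment. In a fit with genotype alone, the spread behind a p-value therefore includes the difference between experiments. In a fit with experiment alone, it includes the difference between genotypes.

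The Egr proteins are zinc finger transcription factors that bind a GC-rich DNA element. Their genes are immediate-early genes: in neurons, synaptic activity and calcium entry switch them on within minutes, through the ERK kinase cascade acting on serum response factor at CArG boxes, and through CREB at cAMP response elements. Egr1 (also called Zif268) is used as a marker of recent neuronal activity and is needed for lasting plasticity. Egr2 (Krox20) patterns the hindbrain and drives myelination by Schwann cells, Egr3 is needed for muscle spindles, Egr4 is the most divergent of the family, and Egr2 and Egr3 also restrain activated T cells.

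Sequence in front of 2 of the 4 genes, those for which entries were found, is shown and was searched for the elements just named. The sequences are RefSeq promoter windows on GRCm38.p6, which run from 250 bases before a start site to 50 bases after it, and entries were found for Egr2, with 5 start sites, and for Egr4, with 1. Capitals mark a CArG box in the first and second sequence and TGACG, read on either strand, in the third; TGACG is the core of the cAMP response element TGACGTCA.
Egr2, 250 bases before the start site at 67537566, chr10:67537316-67537565, + strand: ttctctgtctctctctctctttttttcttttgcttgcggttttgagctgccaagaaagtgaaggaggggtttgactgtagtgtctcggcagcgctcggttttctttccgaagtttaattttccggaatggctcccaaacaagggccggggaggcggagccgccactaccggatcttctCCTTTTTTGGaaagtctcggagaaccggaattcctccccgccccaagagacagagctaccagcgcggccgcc
Egr2, 30 bases around the CArG box of the next start site, chr10:67537787-67537816, + strand: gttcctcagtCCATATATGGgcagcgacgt
Egr4, 250 bases before its start site, chr6:85513590-85513839, - strand: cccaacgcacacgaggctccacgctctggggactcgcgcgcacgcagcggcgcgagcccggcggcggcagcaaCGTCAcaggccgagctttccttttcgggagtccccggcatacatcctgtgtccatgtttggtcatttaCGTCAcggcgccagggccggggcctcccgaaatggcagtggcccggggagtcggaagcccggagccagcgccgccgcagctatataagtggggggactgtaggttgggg
A CArG box was found in 4 of the 5 Egr2 windows, as CCTTTTTTGG at position -72 from the start site at 67537566 and as CCATATATGG at position -72 from the start site at 67537869. Windows of Egr2 overlap, and 3 of them hold the same CCATATATGG, so these are 2 boxes. The Egr4 window held no exact CArG box, searched as CCWWWWWWGG with W for A or T, and near matches were not counted. This window had TGACG at positions -177 and -109, both on the opposite strand. TGACG was not particular to Egr4: 3 of the 5 Egr2 windows held it 2 times, at positions -111 and -55 from the start site at 67537869. These 3 windows overlap and share the same 2 sites. The full TGACGTCA and the Egr element itself, searched as GCGNGGGCG, were in none of the windows of either gene. Over both strands of all 32851 windows of this length, 1.63% held a CArG box, 1.79% held TGACGTCA, 20.8% held TGACG and 5.55% held GCGNGGGCG. TGACGTCA contains TGACG, so windows with the first are also counted in the second.

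The 4 genes lie on 4 chromosomes of GRCm38 (GENCODE vM21). Egr1 is at chr18:34859823-34864984 on the + strand, Egr2 at chr10:67535475-67542188 on the + strand, Egr3 at chr14:70077203-70082614 on the + strand, and Egr4 at chr6:85511121-85513589 on the - strand. Their merged exons span 4484, 3398, 4406 and 2148 bases in that order, so Egr4 is the shortest.

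Library totals were between 19988137 and 26210790 reads. Trbc2, a constant segment of the deleted receptor chain, had 0 reads in both TCRb-/- libraries, against 169 and 86 reads in the WT libraries, and so matched the labels. A count of 0 allows up to 3 reads per library. Septal markers were present, with summed levels of 608 to 696 CPM (counts scaled to a common library total) for the 14 of 15 markers listed, and no listed marker of the septum or its neighbours was at 0. Genes passed a limma test on log2(CPM + 1) when the p adjusted over all 13912 tested genes was under 0.05. No gene passed for genotype (0 called, 0.00%). Between experiments 3292 genes passed (23.7%), 2047 of them lower in experiment 2 (14.7%) and 1245 higher (8.95%). Trbc2 did not pass for genotype either (log2 difference -2.59, limma unadjusted p = 0.000157). This fit thus missed even a gene with 0 reads in TCRb-/-, and its 0 calls do not show equal levels. At an unadjusted p under 0.05, 43 genes differed between genotypes (0.309%). With both terms in the fit, 2 genes passed for genotype (0.0144%) and 24.7% passed for the experiment.

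Egr1 and Egr4 were the abundant members of the family in these libraries. Per kilobase of exon, Egr1 stood at 83.7 and 52.4 CPM in the TCRb-/- libraries of experiments 1 and 2, and at 88.3 and 67.2 CPM in the WT ones. Egr4 stood at 47.6, 43.6, 45.3 and 47.3 CPM per kilobase in the same order. The lowest Egr1 level lay above the highest Egr4 level, so these ranks held in every library, although the gap was narrow in TCRb-/- replicate 2, where Egr1 exceeded Egr4 1.202 times. Egr2 had 3.97, 1.71, 4.59 and 2.91 CPM per kilobase, and Egr3 had 3.86, 1.42, 3.29 and 1.67. Egr2 was ahead of Egr3 in all 4 libraries per kilobase, by 1.03 to 1.74 times, but their ranges overlapped, and in plain CPM Egr3 was ahead in both TCRb-/- libraries. Levels per kilobase take reads as spread evenly over the exons, which was not tested.

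The plainest difference among the 4 genes was between the experiments. Egr1, Egr2 and Egr3 fell from experiment 1 to experiment 2 in both genotypes, and Egr4 did not pass the test. Mean levels were 30.5% lower for Egr1, 46.1% lower for Egr2, 56.7% lower for Egr3 and 2.23% lower for Egr4. These 3 calls of 4 stand beside 14.7% of all tested genes called lower. Both libraries of experiment 2 lay below both of experiment 1 for the same 3 genes, and for 37.2% of all tested genes.

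Egr1, the activity marker, had 375 CPM in TCRb-/- replicate 1 and 235 in TCRb-/- replicate 2, and 396 CPM in WT replicate 1 and 301 in WT replicate 2. The libraries of experiment 1 (386 ± 14.4 CPM, SD, n = 2) did not overlap those of experiment 2 (268 ± 47.0 CPM, SD, n = 2). The log2 difference of experiment 2 minus experiment 1 was -0.53 (SE 0.11, 95% interval -0.79 to -0.28, limma adjusted p = 0.0152). It was -0.67 within TCRb-/- and -0.39 within WT.

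Egr2, the myelination factor of Schwann cells, had 13.5 and 5.80 CPM in the TCRb-/- libraries of experiments 1 and 2 and 15.6 and 9.88 CPM in the WT ones. Experiment 1 (14.6 ± 1.49 CPM, SD, n = 2) again lay wholly above experiment 2 (7.84 ± 2.89 CPM, SD, n = 2), and TCRb-/- replicate 2 was the lowest library. The log2 difference was -0.85 (SE 0.22, 95% interval -1.35 to -0.35, limma adjusted p = 0.0287), with -1.09 within TCRb-/- and -0.61 within WT. The lowest level rested on 116 reads, with an exact 95% interval of 4.796 to 6.96 CPM that covers counting error only.

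Egr3, an activity-induced relative of Egr1, had 17.0 and 6.25 CPM in the TCRb-/- libraries of experiments 1 and 2 and 14.5 and 7.38 CPM in the WT ones. On the log2 scale it had the widest gap of the 4 genes between experiment 1 (15.7 ± 1.77 CPM, SD, n = 2) and experiment 2 (6.82 ± 0.796 CPM, SD, n = 2). The log2 difference was -1.10 (SE 0.15, 95% interval -1.44 to -0.76, limma adjusted p = 0.00549), with -1.31 within TCRb-/- and -0.89 within WT. A lower value than this was found for 0.870% of the tested genes.

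Egr4, the divergent member, had 102 and 93.6 CPM in the TCRb-/- libraries of experiments 1 and 2 and 97.3 and 102 CPM in the WT ones. Experiment 1 (99.8 ± 3.48 CPM, SD, n = 2) and experiment 2 (97.6 ± 5.67 CPM, SD, n = 2) overlapped. The log2 difference was -0.03 (SE 0.07, 95% interval -0.20 to 0.14, limma adjusted p = 0.771). That interval ends above the estimates of the other Egr genes.

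**Figure D1:**
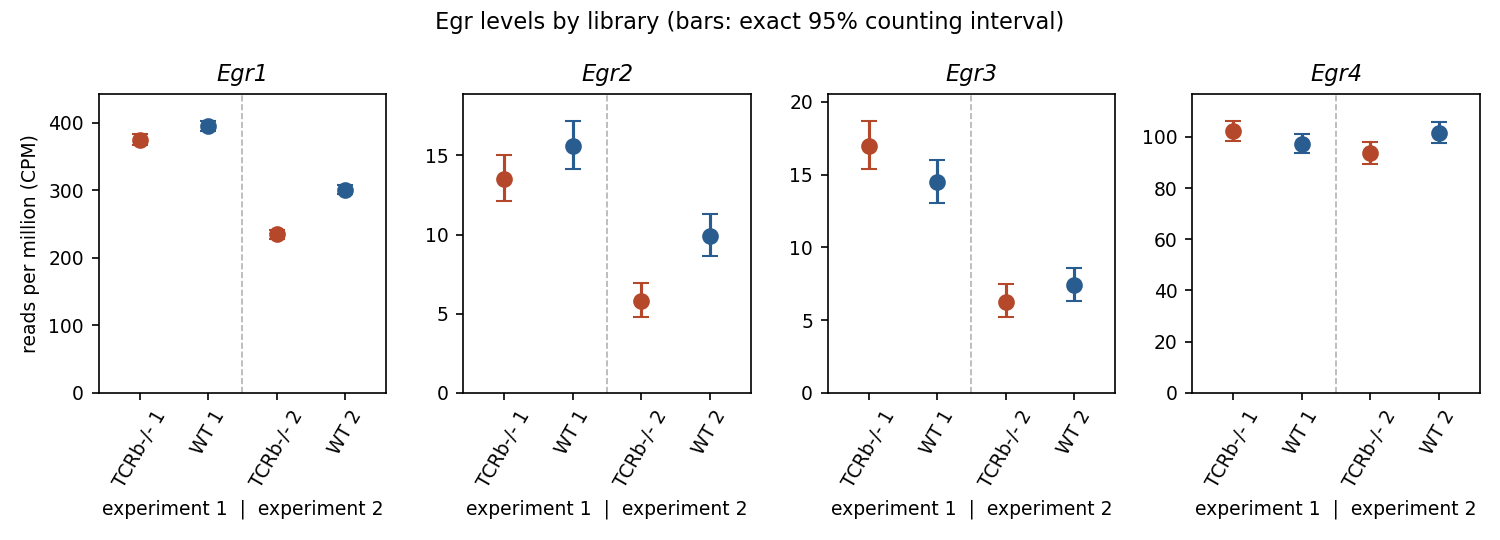
Level of each Egr gene in CPM, 1 panel per gene, with 1 point per library and bars for the exact 95% counting interval; colour marks the genotype and the horizontal position marks the experiment. Egr1, Egr2 and Egr3 are lower in both libraries of experiment 2, while the 4 Egr4 points lie between 93.6 and 102 CPM.

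The calls for Egr1 and Egr2 ended under more of the alternatives than that for Egr3. When limma's spread was estimated without a trend on expression, Egr1 (adjusted p = 0.0736) and Egr2 (adjusted p = 0.0799) no longer passed while Egr3 did (0.0444). In that fit 4.52% of all tested genes passed, and 0.0444 was the lowest limma adjusted p of any gene. With genotype as a second term and no trend none of the 3 passed (0.0740, 0.0674 and 0.0659). There 0 of all tested genes passed, so this fit does not set the Egr genes apart from others. The call for Egr1 ended without WT replicate 1 (limma adjusted p = 0.0613), and that of Egr2 ended without any of 3 libraries, WT replicate 1 (0.128) and TCRb-/- replicates 1 (0.0764) and 2 (0.0553). Egr3 passed whichever library was left out.

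Because the members did not move together, their proportions shifted. Egr1 reads were 3.67 and 4.07 times Egr4 reads in the TCRb-/- and WT libraries of experiment 1, and 2.51 and 2.97 times in those of experiment 2. Egr4 over Egr3 was 6.01 and 6.71 in experiment 1 and 15.0 and 13.8 in experiment 2, the widest shift among the 6 pairs of Egr genes. Of all Egr reads, Egr4 supplied 20.1% and 18.6% in the libraries of experiment 1 and 27.5% and 24.2% in those of experiment 2. The exact two-sided permutation p was 0.3333 for both ratios, the smallest that 2 libraries against 2 allow, so these shifts cannot pass a test. For Egr2 over Egr3 the ratios overlapped between experiments (exact permutation p = 0.667).

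Markers of brain regions around the septum differed between the same libraries. Genes counted as fallen or risen, here and in the gene lists below, are those that passed the limma test between experiments. A gene not counted may still have a difference in the same direction. Striatal markers summed to 6215 and 5564 CPM in the TCRb-/- and WT libraries of experiment 1 and to 1529 and 3358 CPM in those of experiment 2, and 15 of 16 fell. Of 16 markers of excitatory cortical and hippocampal neurons, 8 fell, with sums of 659 and 716 CPM in experiment 1 and 345 and 383 CPM in experiment 2. Choroid plexus markers went the other way, from 2193 and 1342 CPM to 7005 and 4261 CPM, and 15 of 17 rose. Ido1, the striatal marker that did not pass, had a log2 difference of -0.81. Clic6 and Slc13a4, the choroid plexus markers that did not pass, had 0.46 and 0.86. Thalamic markers also went up, from 794 and 784 CPM to 1857 and 1274 CPM, and 9 of 14 rose. Septal markers had sums of 657 and 608 CPM in experiment 1 and 656 and 696 CPM in experiment 2, and 3 of 14 rose. These counts stand beside 14.7% of all tested genes called lower and 8.95% called higher, or 23.7% in all. The septal share called was 21.4%. Without the mean-variance trend none of the striatal, choroid plexus or septal markers passed, and 1 thalamic and 7 cortical and hippocampal ones did. That fit called 4.52% of all tested genes. The striatal count was 3 without TCRb-/- replicate 1 and 6 without WT replicate 1, and the choroid plexus count was 9 without WT replicate 1. Fewer thalamic markers passed without TCRb-/- replicate 1, TCRb-/- replicate 2 or WT replicate 1. Without WT replicate 2 more thalamic markers passed, as did slightly more of all tested genes. The septal count was 1 without TCRb-/- replicate 1, 1 without TCRb-/- replicate 2 and 0 without WT replicate 1. Fewer of all tested genes also passed without TCRb-/- replicate 1, TCRb-/- replicate 2 or WT replicate 1, with shares given with the gene lists below. The part of these markers in the Egr differences was not tested. In such tissue lysates fewer cells of a type and less RNA per cell cannot be told apart.

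**Figure D2:**
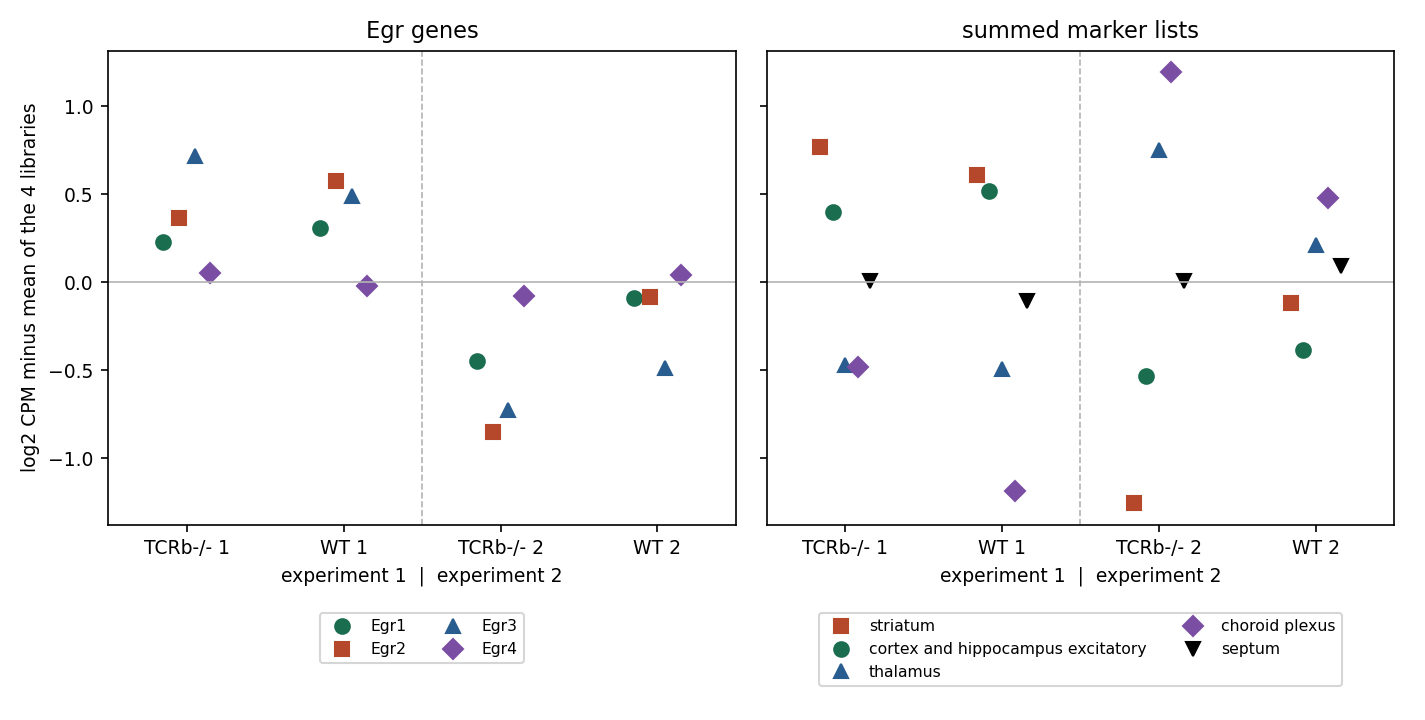
Log2 CPM of each library minus the mean over the 4 libraries, for the Egr genes (left) and for the summed marker lists of 5 tissues (right), with the libraries of experiment 1 left of the dashed line. Egr1, Egr2 and Egr3 lie above 0 in experiment 1 and below it in experiment 2, as the striatal and cortical sums do, while Egr4 and the septal sum stay near 0.

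Exon length also moved with the difference between experiments. Across 13552 genes with a length, the log2 difference of experiment 2 minus experiment 1 had a Spearman rho of -0.398 with exon length, a description across genes of the same 4 libraries. Of these genes, 50.3% were shorter than Egr1, 34.1% shorter than Egr2, 49.1% shorter than Egr3 and 15.0% shorter than Egr4. With each library's trend on exon length removed, the log2 differences were -0.48 for Egr1 (limma adjusted p = 0.0276), -0.86 for Egr2 (0.0345), -1.05 for Egr3 (0.0101) and -0.15 for Egr4 (0.201), so the same 3 genes passed, in a fit where 16.8% of genes were called and 8.66% were lower.

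None of the 4 Egr genes passed the test between the genotypes, and the TCRb-/- and WT ranges overlapped for each. Of all tested genes, 8.04% lay wholly lower in TCRb-/- and 9.76% wholly higher. Egr1 averaged 305 ± 99.4 CPM (SD, n = 2) in TCRb-/- and 348 ± 66.8 CPM (SD, n = 2) in WT, with a log2 difference of -0.22 (SE 0.26, 95% interval -0.88 to 0.45). Egr2 averaged 9.65 ± 5.44 CPM (SD, n = 2) in TCRb-/- and 12.7 ± 4.04 CPM (SD, n = 2) in WT, with a difference of -0.44 (SE 0.41, interval -1.48 to 0.61). For Egr3 the means were 11.6 ± 7.60 and 10.9 ± 5.03 CPM (SD, n = 2 each), and the log2 difference was 0.0039 (SE 0.51, interval -1.28 to 1.29). For Egr4 they were 97.9 ± 6.15 and 99.4 ± 3.00 CPM (SD, n = 2 each), with -0.02 (SE 0.12, interval -0.34 to 0.29). All 4 limma adjusted p-values were 1.00. With 1 term the intervals bound a genotype difference tightly for Egr4 and loosely for Egr3, whose interval runs from 0.412-fold to 2.44-fold. With the experiment as a second term they were -0.41 to -0.026 for Egr1 and -0.79 to -0.079 for Egr2. For Egr3 the interval was then 0.789-fold to 1.27-fold, and for Egr4 it was -0.20 to 0.16. Those of Egr1 and Egr2 exclude 0 but are not adjusted for the number of genes tested. Neither gene passed in that fit (limma adjusted p = 0.848 for both).

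**Figure D3:**
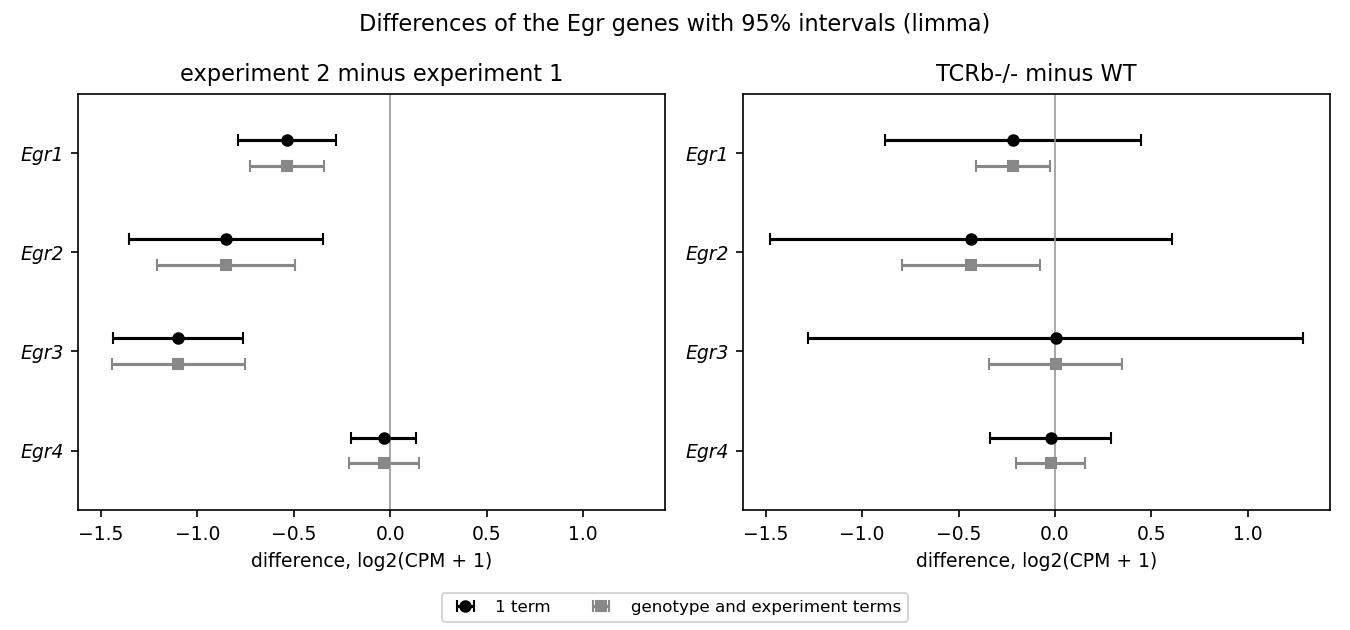
Log2 differences of the Egr genes on the log2(CPM + 1) scale with 95% intervals from limma, for experiment 2 minus experiment 1 (left) and TCRb-/- minus WT (right), from fits with 1 term (black circles) and with both terms (grey squares). The intervals of Egr1, Egr2 and Egr3 lie below 0 on the left, and with 1 term all 4 intervals include 0 on the right. With both terms those of Egr1 and Egr2 on the right lie below 0, without adjustment for the number of genes tested.

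Within each experiment the genotypes could be compared 1 library against 1. Egr1 was lower in TCRb-/- in both, with a log2 difference of -0.08 in experiment 1 and of -0.36 in experiment 2. Egr2 was likewise lower in both, with -0.20 and -0.68. A lower TCRb-/- value in both experiments was found for 24.5% of all tested genes. Egr3 had 0.22 in experiment 1 and -0.21 in experiment 2, and Egr4 had 0.07 and -0.12, opposite signs that 48.4% of genes shared. With the experiment as a second term, the unadjusted p was 0.0306 for Egr1 and 0.0228 for Egr2, in a fit where 5.64% of genes were under 0.05, and the limma adjusted p was 0.848 for both. TCRb-/- replicate 2 was the lowest library for all 4 Egr genes, as it was for 31.7% of tested genes, and for all 16 striatal markers. Without it, the genotype difference of Egr1 was 0.12 and that of Egr2 was 0.11, above 0 in place of below. Without TCRb-/- replicate 1 they were -0.55 and -0.98.

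T cell genes, among which Egr2 and Egr3 have known roles, were scarce in the tissue. Of 13 T cell markers, 6 were listed, and the CD3 chain genes Cd3d, Cd3e and Cd3g were not among them. Trac, the constant segment of the alpha chain, had 14 and 23 reads in the TCRb-/- libraries and 26 and 36 reads in the WT libraries. The summed T cell markers were 129, 57.7, 126 and 88.6 CPM in the TCRb-/- libraries of experiments 1 and 2 and then in the WT ones, most of it from Cd4 and from Thy1, which neurons also express. Their part in the Egr levels was not tested.

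Lists of genes around the Egr family were read the same way, for the experiments against a background of 23.7% called and a median log2 difference of -0.03 over all tested genes. The share of all genes called was 16.8% (8.66% lower, 8.09% higher) with the exon length trend removed and 23.2% (11.5% lower, 11.7% higher) after quantile normalization. It was 4.52% (3.59% lower, 0.934% higher) without the mean-variance trend, 10.1% without TCRb-/- replicate 1, 13.1% without TCRb-/- replicate 2 and 11.8% without WT replicate 1. In the genotype comparison no member of any list passed, against 0.00% of all genes.

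Among the cofactors and relatives that share the Egr element, 1 of 5 tested genes fell between experiments and none rose, with a median of -0.14. The gene that fell was Nab2, a corepressor that binds Egr1 and is itself induced by it, with 38.5 and 27.7 CPM in the TCRb-/- libraries of experiments 1 and 2 and 38.0 and 31.2 CPM in the WT ones (log2 difference -0.37, SE 0.09, limma adjusted p = 0.0279). It did not pass after quantile normalization, without the mean-variance trend, or without any of TCRb-/- replicate 1, TCRb-/- replicate 2 and WT replicate 1. Its relative Nab1 had 43.0 and 45.3 CPM in TCRb-/- and 46.6 and 41.9 CPM in WT (-0.04, adjusted p = 0.778). Wt1, a zinc finger factor with a similar element, was not listed.

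Of the kinase cascade and transcription factors upstream of the Egr genes, 12 of 24 fell and 1 rose, or 54.2% called, with a median of -0.35. Serum response factor, Srf, which binds CArG boxes, had 31.5 and 20.6 CPM in the TCRb-/- libraries of experiments 1 and 2 and 26.0 and 20.5 CPM in the WT ones (log2 difference -0.46, SE 0.12, limma adjusted p = 0.0276). Among its partners, which ERK phosphorylates, Elk1 fell too, with -0.74 (adjusted p = 0.00505), and so did Elk4, with -0.70 (0.0117). Elk3, on the same list, did not pass (log2 difference 0.09, limma adjusted p = 0.773). Elk1 passed whichever library was left out, Elk4 did not pass without TCRb-/- replicate 1 or without WT replicate 1, and Srf did not pass without TCRb-/- replicate 1 or without the mean-variance trend. Mapk3, which encodes the kinase ERK1, had -0.09 (0.3331). Mef2c, a calcium-regulated transcription factor of neurons, had the largest fall of the list (log2 difference -1.15, limma adjusted p = 0.00598). It also had the lowest genotype difference of the list. Araf, a kinase at the head of the cascade, was the gene that rose (0.37, adjusted p = 0.00921). With the exon length trend removed, 6 of 22 fell and 1 rose, and without the mean-variance trend 2 of 24 fell and none rose. The count that fell was 3 without TCRb-/- replicate 1, 8 without TCRb-/- replicate 2 and 6 without WT replicate 1.

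Of the inhibitors that ERK signalling switches on to restrain itself, 3 of 11 fell and none rose, or 27.3%, with a median of -0.19. The genes that fell were Dusp6, an ERK phosphatase, with -0.37 (limma adjusted p = 0.0203), Spry2 with -0.73 (0.0483) and Spred1 with -0.69 (0.00995). Dusp1, a phosphatase induced early after stimulation, had 54.3 and 51.0 CPM in TCRb-/- and 56.1 and 64.4 CPM in WT (0.05, adjusted p = 0.752), and Dusp5 had -0.09 (0.701). None of the 11 passed without the mean-variance trend, and 1 did without TCRb-/- replicate 2 and 1 without WT replicate 1, with list medians of -0.36 to -0.06 over the fits with 1 library left out.

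Genes described as Egr targets in neurons split: 5 of 15 fell and 2 rose, 46.7% called, with a median of -0.09. Arc, which acts at synapses and has an Egr-bound enhancer, had 146 and 93.1 CPM in the TCRb-/- libraries of experiments 1 and 2 and 117 and 107 CPM in the WT ones (log2 difference -0.39, limma adjusted p = 0.0447). Htr2a, a serotonin receptor gene described as an Egr3 target, fell with -0.96 (adjusted p = 0.0128). Cdk5r1 and Gabra4 were also among the genes that fell. The genes that rose were Ache, which encodes acetylcholinesterase (0.45, 0.00975), and Th, which encodes tyrosine hydroxylase (0.68, 0.00534). Arc did not pass without TCRb-/- replicate 1, where its difference was the smallest at -0.23, without TCRb-/- replicate 2, after quantile normalization or median-of-ratios scaling, or without the mean-variance trend. For the list, without that trend 1 of 15 fell and 1 rose, and with the exon length trend removed 3 fell and 3 rose. The counts were 1 fallen and 3 risen without TCRb-/- replicate 1, 3 and 2 without TCRb-/- replicate 2, and 5 and 4 without WT replicate 1. Of the Egr2 targets known from Schwann cells, 1 of 8 tested genes fell, the lipid enzyme gene Scd2 with -0.38 (0.00907), and none rose.

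Other immediate-early genes also moved in both directions: 8 of 23 fell and 2 rose, 43.5% called, with a median of -0.36. Fos, the classic activity marker, rose where Egr1 fell, with 32.5 and 49.7 CPM in the TCRb-/- libraries of experiments 1 and 2 and 41.6 and 48.8 CPM in the WT ones (log2 difference 0.41, SE 0.12, limma adjusted p = 0.0399). Its partner gene Jund rose too (0.37, adjusted p = 0.0110), and Junb fell (-0.37, 0.0395). Junb passed in 1 of the 4 fits with 1 library left out, the one without WT replicate 2, with differences of -0.52 to -0.22 over the 4, and did not pass after quantile normalization or median-of-ratios scaling or without the mean-variance trend. Npas4, a neuron-specific activity-dependent factor, had 5.74 and 1.00 CPM in TCRb-/- and 2.098 and 1.07 CPM in WT (-1.17, adjusted p = 0.0405). Its difference ran from -1.73 to -0.61 over fits with 1 library left out and from -1.72 to -0.53 over the other alternatives. It did not pass without TCRb-/- replicate 1, with a pseudocount of 5, with voom weights, with the exon length trend removed or without the mean-variance trend. Fosb had -0.26 (0.226). Nr4a1, an orphan nuclear receptor gene, had -0.51 (0.105), and passed with genotype as a second term (limma adjusted p = 0.0235). The genes that fell also included Fosl2, Nr4a3, Ier5, Homer1 and Ptgs2, and Arc, which is on the neuronal target list as well. With the exon length trend removed, 5 of 22 fell and none rose, and after quantile normalization 5 of 23 fell and 2 rose. Without the mean-variance trend 3 fell and none rose, and the count that fell was 3 without TCRb-/- replicate 1, 4 without TCRb-/- replicate 2 and 4 without WT replicate 1. Fos did not pass with the exon length trend removed (limma adjusted p = 0.113), without the mean-variance trend, without TCRb-/- replicate 1, or without TCRb-/- replicate 2.

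**Figure D4:**
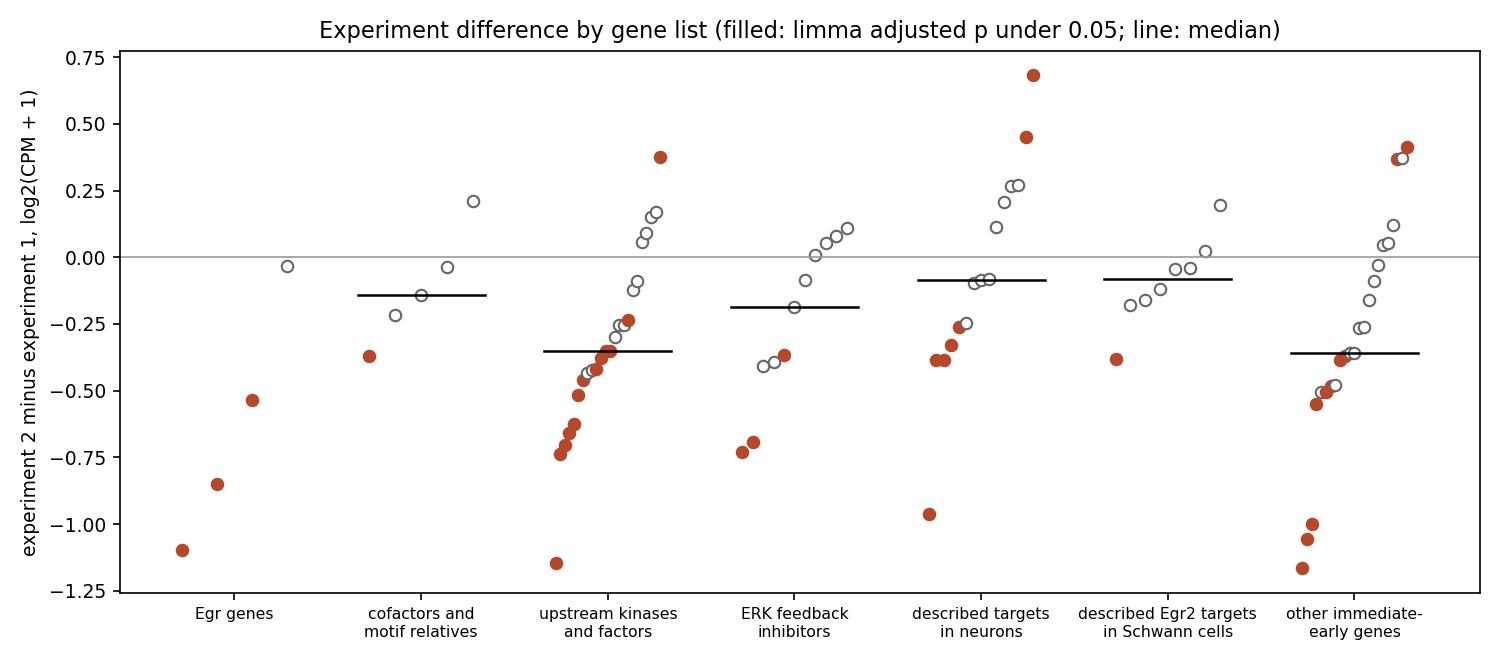
Log2 difference of experiment 2 minus experiment 1 for each tested gene of the Egr genes and 6 lists around them, with 1 point per gene, filled where the limma adjusted p was under 0.05, and a bar at each list's median. Egr3 at -1.10 lies near the low end and Fos at 0.41 is among the few filled points above 0.

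In the genotype comparison, the lowest and highest members of the lists were Sp1 (-0.09) and Nab1 (-0.0033) among the cofactors, Mef2c (-0.41) and Srf (0.14) upstream, and Spry2 (-0.44) and Spry1 (0.15) among the ERK inhibitors. They were Syn2 (-0.12) and Vgf (0.19) among the neuronal targets, and Nr4a1 (-0.45) and Npas4 (0.53) among the other immediate-early genes. The highest Schwann cell target was the myelin gene Mbp (0.12). All had a limma adjusted p of 1.00. The list medians lay between -0.13 and 0.02.

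The genes with the nearest profile to each Egr gene were found by the root mean square distance between log2(CPM + 1) values, each centred on its own mean over the 4 libraries. For Egr1 they were Slc44a5, Gm43267 and Magi2, which encodes a synaptic scaffold protein, at distances of 0.0155, 0.0158 and 0.0178, and 473 genes lay within 0.1. For Egr2 they were Rad54l, Npy, which encodes neuropeptide Y, and Ackr2, at 0.0348, 0.0466 and 0.0505, and 33 genes lay within 0.1. For Egr3 they were Pxdn, Npas2, a circadian transcription factor gene, and Rapgef4, which encodes a cAMP sensor, at 0.0103, 0.0368 and 0.0469, with 34 genes within 0.1. Egr4 was nearest to Rpusd1, Rdh11 and Trip4, at 0.00714, 0.00755 and 0.00762, and 3391 genes with little spread over the libraries lay within 0.1. No Egr gene was among the nearest of another: the closest pair, Egr1 and Egr2, was 0.199 apart, and the farthest, Egr3 and Egr4, was 0.537 apart. With 4 libraries such distances describe these samples.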

How the data were processed

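Per the labels' protocols, RNA came from the detergent-treated, cleared lysate of dounced septal tissue, and the SMARTer Ultralow kit gave libraries that were read on a HiSeq2500. The submitters' processing notes name mm10, HISAT2 2.1.0, SAMtools 1.3, HTSeq 0.9.1, R 4.0.5 and limma 3.46.0, with no role or order; the treatment of reads with several matches is not given in the sources used here. The authors deposited 1 log2 value per gene and library, which the values show to be the log2 CPM with 0.5 added to the reads and 1 to the library total. Whole reads were recovered from these for 100% of the values within 0.01 reads, and 1 read was worth 0.0382 to 0.0500 CPM. The 17 spike-in rows were left out.

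Genes averaging 1 CPM or more were tested with limma 3.58.1 (R 4.3.3) on log2(CPM + 1), which understates changes of low genes, with genotype or experiment as the 1 term, a mean-variance trend, and Benjamini-Hochberg adjustment; all tests are two-sided. No count model was run. All 4 Egr genes passed the filter. Replicate numbers mark the experiment in the labels, and deviations of same-numbered libraries from their genotype means had a correlation of 0.719, so the fit with both terms is the paired one. Replicates of 1 genotype differed far beyond counting noise. Scripts were tested on simulated data. Figures and tables were made with Python 3.11.15.

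The members and gene lists were chosen with earlier results of these data known. Genes named in the text are the Egr genes, a set of regulators and immediate-early genes, the list members with the highest and lowest genotype difference and the 3 nearest profiles per Egr gene; other list members were named after their values were seen, and some genes under this rule are not reported here. Alternatives tried were other pseudocounts, filters, scalings, moderation, weights, the block and each library left out. Added after seeing the data were removal of the exon length trend and the block without a mean-variance trend.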

Additional observations from a re-analysis of the deposited data

Results flagged for a closer look

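Several named genes had log2 differences of opposite sign in the 2 experiments or the 2 genotypes. With 1 library per cell of the design the difference between these pairs was not tested, and 48.4% of all tested genes had opposite signs of the genotype difference.

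For TCRb-/- minus WT in experiments 1 and 2, Egr3 had 0.22 and -0.21 and Egr4 had 0.071 and -0.12. The activity-dependent factor gene Npas4 had 1.120 and -0.052, and its high value came from TCRb-/- replicate 1, the library with 5.74 CPM. Among the cofactors, Nab1 had -0.12 and 0.11 and Sp1 had 0.19 and -0.36. Syn2, a synaptic vesicle gene, had -0.35 and 0.11, and Vgf, a secreted neuropeptide precursor gene, had 0.39 and -0.0075. The myelin gene Mbp had 0.30 and -0.051.

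For experiment 2 minus experiment 1 in TCRb-/- and WT, Egr4 had -0.13 and 0.061. Nab1 had 0.074 and -0.15, Dusp1 had -0.088 and 0.20, and Dusp5 had -0.36 and 0.18. Of the genes nearest to Egr4 in profile, Rdh11 had -0.12 and 0.067, Rpusd1 had -0.13 and 0.078, and Trip4 had -0.14 and 0.049.

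Spike-in RNAs, which no comparison used, stood at 194 and 160 CPM in the TCRb-/- libraries of experiments 1 and 2 and at 244 and 175 CPM in the WT ones.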

How the results depend on the processing

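The genotype calls were 0 for every Egr gene in all 14 alternatives with all libraries. With the replicate block 2 genes passed (Trbc2, limma adjusted p = 0.0323, and the choroid plexus gene Ttr), as with the block plus quantile normalization (2) or plus exon length removal (2), against 0 with the block but no mean-variance trend. The pairing gave Nr4a1 a call between experiments, and changed no call of an Egr gene. Genes called between experiments numbered 629 without the mean-variance trend (130 higher, 499 lower) and 0 with the block and no trend. After quantile normalization 1634 were higher and 1593 lower, and after median-of-ratios scaling 1554 higher and 1763 lower, against 1245 and 2047. Without the trend the differences stayed at -0.53 (Egr1), -0.85 (Egr2) and -1.10 (Egr3), with the lost calls given in the report; the cause was not tested.

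The sign of values near 0 turned. The genotype difference of Egr3 was -0.0035 with a pseudocount of 0.1, -0.0039 on the deposited log2 values, -0.0014 after median-of-ratios scaling and -0.0043 with the exon length trend removed, with or without the block. After quantile normalization, with or without the block, Nab1 had 0.0049 for genotype and 0.034 for experiment, and the experiment differences were 0.019 for Egr4, 0.011 for Dusp5, 0.047 for Rdh11 and 0.026 for Trip4. Median-of-ratios scaling gave 0.0037 for Rdh11 and 0.0048 for Rpusd1, and removing the exon length trend gave 0.12 for Trip4, with or without the block.

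With 1 library left out, the lone library of its group is taken to vary like the others. Genes called by genotype then numbered 0 to 47: 47 if TCRb-/- replicate 1 was dropped, and 1 if TCRb-/- replicate 2 was. Those called between experiments numbered 1406 to 3390: 1406 if TCRb-/- replicate 1 was dropped, 1823 if TCRb-/- replicate 2 was, and 1637 if WT replicate 1 was. Genotype differences ranged from -0.55 to 0.12 for Egr1, -0.98 to 0.11 for Egr2, -0.65 to 0.66 for Egr3 and -0.087 to 0.040 for Egr4. Experiment differences ranged from -0.71 to -0.35 for Egr1, -1.19 to -0.51 for Egr2, -1.21 to -0.99 for Egr3 and -0.092 to 0.026 for Egr4. Genotype ranges that crossed 0 were -0.99 to 0.18 for Mef2c, -0.079 to 0.072 for Nab1, -0.34 to 1.41 for Npas4, -0.30 to 0.12 for Sp1, -0.89 to 9.4e-05 for Spry2, -0.16 to 0.43 for Srf and -0.37 to 0.13 for Syn2. Experiment ranges that did were -0.11 to 0.22 for Dusp1, -0.24 to 0.065 for Dusp5, -0.096 to 0.020 for Nab1, -0.079 to 0.024 for Rdh11, -0.088 to 0.033 for Rpusd1 and -0.11 to 0.011 for Trip4. Over the results reported and the alternatives with all libraries, 736 values kept direction and call or moved by less than the spread, 48 lost a call, 5 gained one, 21 turned sign and 20 moved.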

Other observations

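Among the 6 lists of genes around the Egr family, marker lists apart, 3 activity-linked genes had the lowest unadjusted p for genotype with the experiment as a second term, and were chosen after their values were seen. Mef2c had 123 and 56.2 CPM in the TCRb-/- libraries of experiments 1 and 2 and 167 and 73.5 CPM in the WT ones, and its TCRb-/- library was the lower 1 in both experiments (limma unadjusted p = 0.000494, adjusted p = 0.362). Homer1, a synaptic scaffold gene with a short activity-induced form, had 104 and 43.6 CPM in TCRb-/- and 122 and 66.5 CPM in WT (unadjusted p = 0.00313, limma adjusted p = 0.777). Nr4a1 had 48.5 and 28.2 CPM in TCRb-/- and 55.6 and 46.7 CPM in WT (unadjusted p = 0.00688, limma adjusted p = 0.848). None passed the threshold. In that fit 5.64% of all tested genes had a limma unadjusted p under 0.05. All 3 genes were lower in TCRb-/- in both experiments, as were 24.5% of all tested genes. Of the 23 tested other immediate-early genes, which include Homer1 and Nr4a1, 13 were lower in TCRb-/- and 10 were higher. Of the 24 upstream genes, which include Mef2c, 17 were lower and 7 were higher.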
